A study of Gallus gallus with 12 samples.

Results

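The genes described here are the protein-coding genes of chicken chromosomes 29 to 39 that were measurably expressed in embryonic brain tissue. A gene was a member if it had 10 or more counts in at least 3 of the 12 libraries. Genes named for DNAJ co-chaperones, ribosomal proteins, respiratory chain subunits of the NDUF type and potassium, calcium or sodium channels were left out, as was STIP1. Of 992 rows on these chromosomes, 782 were protein-coding and 376 of those passed the count rule. The names removed 7 (STIP1, RPS26, SCN8A, CACNB3, DNAJB1, MRPS12 and DNAJC22), which left 369 members of the 13919 protein-coding genes that passed the count rule in the whole table. A symbol was given for 256 members and 113 carried an identifier alone. The members were selected on these measured counts, so the presence of expression is not a result. The chromosomes were proposed with the whole brain results of these libraries already known. At the edge of the rule, 9 members reached 10 counts in exactly 3 libraries, with a median of their mean counts of 6.5 per library. Another 9 genes reached it in exactly 2 libraries and stayed outside, with a median of 4.58. A smaller set of 319 members had 10 or more counts in all 12 libraries. Only 2 members passed through the 3 libraries of a single group, CELA1 among them.

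White Leghorn chicken embryos were sampled on embryonic day 18. Embryos of the ETM group (embryonic thermal manipulation) were kept at 39.5 °C from day 13 to day 18, and control (CT) embryos stayed at 37.8 °C, which was also the temperature of ETM embryos outside that window. Relative humidity was given as 65% in the design text and as 60% in the growth protocol. There were 4 groups of 3 libraries, ETM and CT whole brain and ETM and CT hypothalamus. No label says whether a library came from 1 embryo or from several, so the p-values below measure the spread between these libraries, which may in part be technical. All libraries carry the same batch label. Total counts ran from 13309467 to 18317019 per library. The W chromosome gave 0.147% of counts in ETM whole brain library 1, 0.113% in ETM hypothalamus library 2 and 0.120% in CT hypothalamus library 3. In every other library it gave 0.010% to 0.017%, and the part of this imbalance in the members' result was not tested. The FPKM values deposited for ETM hypothalamus library 1 do not match its counts. The medians and counts of calls over all members that use this library were recomputed with reads recovered from those values. Medians by chromosome and single genes below are given with the deposited counts of this library unless stated.

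Birds have a few large chromosomes and many small ones, the microchromosomes. Microchromosomes are known for a high density of genes, short introns and a high content of G and C, and they gather in the middle of the nucleus. The last annotated gene ended at 0.174 Mb on chromosome 39 and at 0.756 Mb on chromosome 30. Chromosomes 33 and 34 reached 3.83 Mb and 3.42 Mb and were not shorter by this measure than chromosome 16 (2.67 Mb) or chromosome 25 (3.06 Mb). The median member was 2574 bases of counted gene length in a span of 6923 bases. The medians were 3208 bases in a span of 10851.5 bases on chromosomes 11 to 28, and 3813 bases in a span of 22641 bases on chromosomes 1 to 10. Chromosome 34 held 165 members, chromosome 38 held 62 and chromosome 30 held 61. Chromosomes 31, 35, 39, 36, 29 and 33 held 25, 18, 18, 12, 7 and 1, and chromosomes 32 and 37 held 0. Of the members, 163 overlapped another row of the annotation, where reads of the partners may not be fully separable.

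The most abundant members were genes of the cytoskeleton, energy supply and protein folding. Levels between genes are given as CPM (counts scaled to library size) per kilobase of gene length, averaged over the 12 libraries. TUBA1A, an alpha-tubulin of young neurons, had the highest level at 1687 CPM per kilobase. ATP5B, the beta subunit of mitochondrial ATP synthase, stood at 881.6. On chromosome 38 the selenoprotein gene SELENOW reached 497.5 and the SWI/SNF chromatin remodelling ATPase SMARCA4 139.8. The highest on chromosome 30 were CALR, a calcium-binding chaperone of the endoplasmic reticulum, at 350.1 and the ubiquitin-like UBL5 at 248.9. OTUB1, a deubiquitinase on chromosome 39, stood at 98.2, and UBE2M, which conjugates the NEDD8 modifier, stood at 51.3 on chromosome 31.

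In whole brain the members took a smaller share of each library in ETM than in CT embryos. They made up 2.49%, 2.21% and 2.49% of all counts in ETM whole brain libraries 1 to 3, against 3.34%, 3.90% and 3.49% in CT whole brain libraries. The means were 2.40 ± 0.16% and 3.58 ± 0.29% (SD, n = 3 each), and the groups did not overlap. In hypothalamus the share was 3.92%, 3.49% and 3.28% in ETM and 3.52%, 3.10% and 3.56% in CT libraries, which overlapped. Chromosome 34 alone gave 1.38% to 1.59% of counts in ETM whole brain and 2.14% to 2.55% in CT whole brain. Over the same libraries chromosomes 11 to 28 held 29.7% to 30.7% in ETM whole brain and 33.7% to 35.3% in CT whole brain. Chromosomes 1 to 10 went the other way, with 48.5% to 50.2% in ETM whole brain and 44.9% to 47.1% in CT whole brain. The mitochondrial genome also held more in ETM whole brain, at 7.09% to 8.62% against 6.17% to 6.29% in CT whole brain. The part of that difference in the members' result was not tested. A share is relative, so fewer cells of a type and less RNA per cell cannot be told apart.

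**Figure D1:**
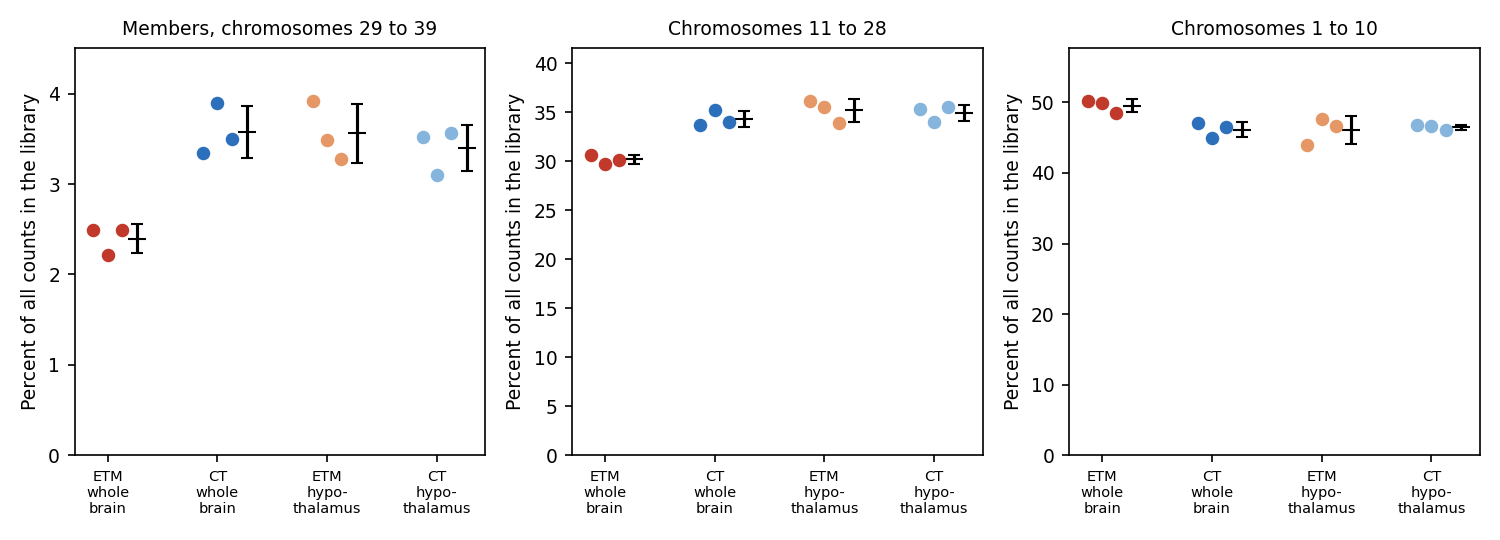
Percent of all counts in a library that came from the members on chromosomes 29 to 39, from chromosomes 11 to 28 and from chromosomes 1 to 10, with 1 point per library and the mean ± SD of 3 libraries in black. The members' share lies between 2.21% and 2.49% in ETM whole brain and between 3.34% and 3.90% in CT whole brain.

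The tissue labels were checked against marker genes. Libraries labelled hypothalamus held little of the pallium, with 4 markers summing to 6.08 to 7.81 CPM in ETM and 5.31 to 7.56 CPM in CT hypothalamus. The same markers summed to 406 to 412 CPM in ETM whole brain and 286 to 372 CPM in CT whole brain. The 6 hypothalamic markers summed to 19.8 to 31.8 CPM in ETM hypothalamus and 18.9 to 60.5 CPM in CT hypothalamus. Within ETM and within CT embryos they were higher in whole brain, at 41.7 to 42.7 CPM in ETM and 77.9 to 82.1 CPM in CT. One by one they split, with 3 called higher and 3 lower in CT hypothalamus than in CT whole brain, and 2 higher and 3 lower between the ETM tissues. The 4 midbrain and hindbrain markers summed to 73.9 to 165 CPM in ETM hypothalamus and 122 to 140 CPM in CT hypothalamus. In whole brain they summed to 26.9 to 32.7 CPM in ETM and 22.8 to 32.4 CPM in CT, and 4 of 4 were called higher in hypothalamus in both tissue comparisons. The name hypothalamus is therefore used here only as a label, and the dissected region was not established from these markers. Markers of other cell types were also compared between the whole brain groups. The 4 red blood cell markers found summed to 190 to 468 CPM in ETM whole brain and 486 to 749 CPM in CT whole brain. Of these 3 were called lower and 0 higher. Choroid plexus markers summed to 1160 to 1730 CPM in ETM whole brain and 722 to 1150 CPM in CT whole brain, but of 4 tested 1 was called higher and 3 had fold changes below 0. The hypothalamic and pallium sums given above also did not overlap between ETM and CT whole brain. Of the 6 hypothalamic markers 2 were called lower and 0 higher, and of the 4 pallium markers 2 were higher and 1 lower. The part of all these markers in the members' result was not tested.

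Heat exposure went with lower levels of most members in whole brain. Gene by gene, 233 of the 346 members tested fell and 4 rose (edgeR's quasi-likelihood F-test, adjusted p below 0.05 by Benjamini and Hochberg's method over all 15305 rows). Over all rows tested 44.3% were called, 23.2% lower and 21.1% higher. The median log2 fold change of the members was −0.58, against 0.01 over all rows, −0.24 on chromosomes 11 to 28 and 0.13 on chromosomes 1 to 10. Fold changes were below 0 for 312 members (90.2%). Of the 319 members with 10 or more counts in all 12 libraries, 221 fell and 4 rose. Because the chromosomes were proposed with this contrast known, the counts describe the pattern and do not test it. The fold changes are relative to the bulk of all genes. With scaling factors drawn from the members alone, an alternative chosen after the data were seen, the median of all rows was 0.60 and 45 members were lower and 60 higher. With it 9725 of all rows were called. That scaling sets the members' centre near 0 by construction, so it cannot show whether the members fell, here or in the lists below.

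By chromosome, the median ran from −0.66 on chromosome 34, where 119 of 155 members tested fell and 1 rose, to −0.43 on chromosome 29, where 2 of 4 fell and 0 rose. On chromosome 38, 44 of 61 fell and 0 rose, with a median of −0.62. Chromosome 30 had 34 of 59 lower and 0 higher, and a median of −0.47. Chromosome 39 had 12 of 18 lower and 1 higher, chromosome 35 had 10 of 17 lower and 2 higher, and chromosomes 31 and 36 had 6 of 19 and 6 of 12 lower with 0 higher in each. The single member of chromosome 33 was at 0.25 and was not called. The low medians were not limited to these chromosomes, since chromosome 25 had −0.59 and chromosome 16 had −0.52. Across the 36 chromosomes with at least 4 genes tested, the median followed the position of the last gene end, with a Spearman correlation of 0.96 and a Pearson r of 0.90 against its log10. All 36 points come from the same 6 libraries and share their depth, so this is a description. In hypothalamus the same relation had the opposite sign, with a Spearman correlation of −0.94 and a Pearson r of −0.89. The members' median there was 0.01 without ETM hypothalamus library 1 and 0.30 with its recovered reads. The relation was not recomputed in either setting, so how far it rests on that library was not tested.

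**Figure D2:**
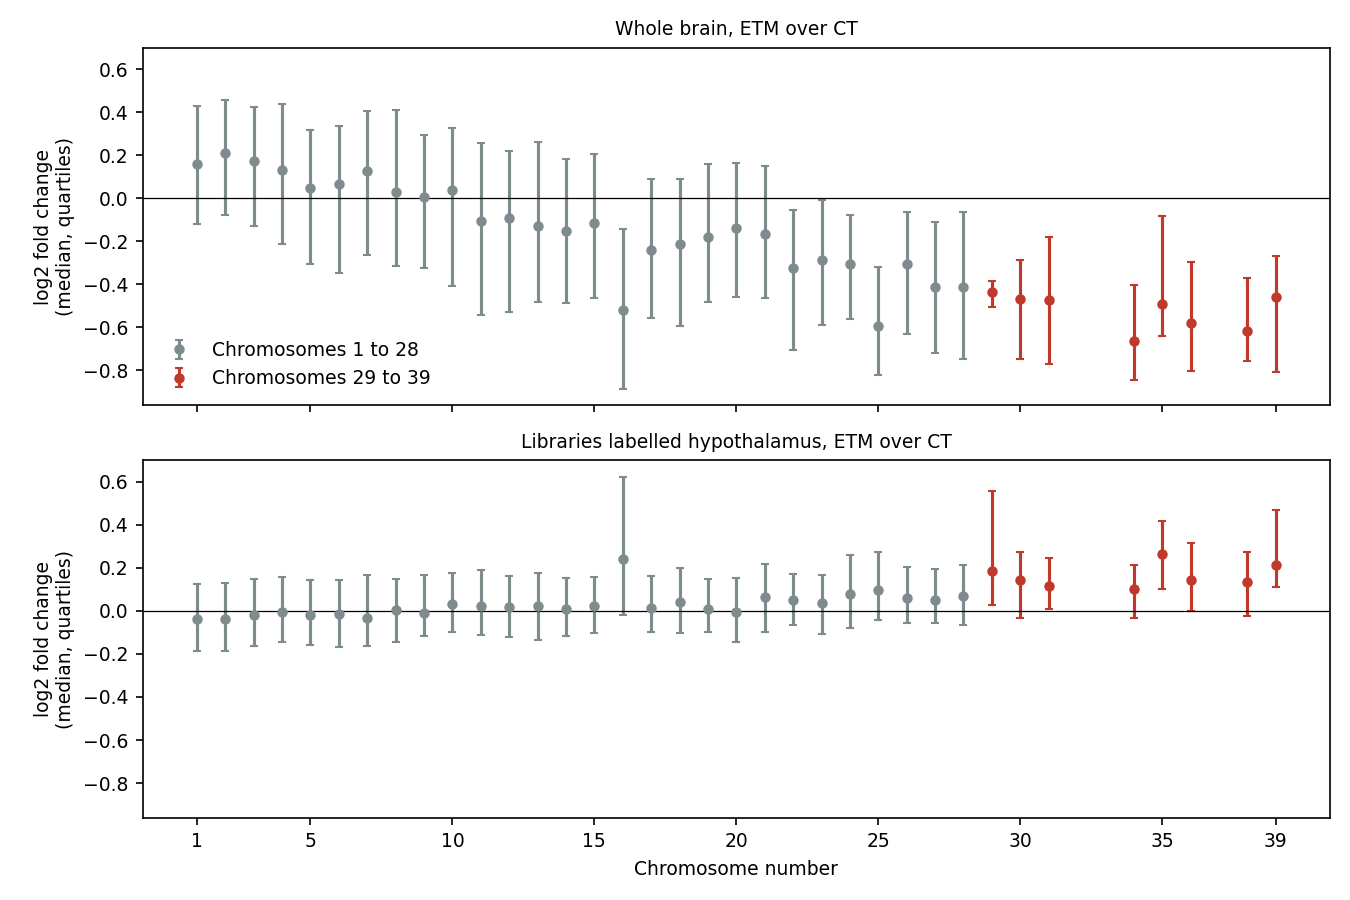
Median log2 fold change of ETM over CT by chromosome number, with quartiles as bars, in whole brain (top) and in libraries labelled hypothalamus (bottom), for chromosomes with at least 4 genes tested. In whole brain the medians of chromosomes 29 to 39 lie between −0.66 and −0.43, and in hypothalamus those of chromosomes 29 to 39 lie above 0.

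Split into 3 groups of 123 by gene length or by level, the members had medians below 0 in every group. The shortest genes (159 to 1860 bases) had a median log2 fold change of −0.49, with 68 of 111 tested lower and 3 higher. The longest genes (3100 to 21700 bases) had −0.66, with 80 of 118 lower and 1 higher. By level per kilobase, the lowest group had −0.52 and the highest −0.59. Calls followed the level, with 39 of 100 tested lower in the lowest group and 103 of 123 in the highest. Members with a symbol had a median of −0.61 and those without one −0.49. Among the long noncoding RNA rows of the same chromosomes, which are not members, 5 of 24 tested were lower and 4 higher, with a median of −0.21.

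The gene lists that follow hold only members with a symbol, of which 183 of 249 tested fell, against 233 of 346 of all members. Calls also followed the level, with 103 of 123 members lower in the highest group. A list near these shares does not stand apart from the other members, and the lists were not matched for level. Regulators of chromatin and of RNA polymerase II were lower in ETM whole brain. All 12 of the members on that list fell and 0 rose, with a median log2 fold change of −0.72, whereas with scaling on the members alone 2 were lower and 1 higher. SUPT5H, an elongation factor of RNA polymerase II, averaged 96.6 ± 5.40 CPM in ETM and 175 ± 25.5 CPM in CT whole brain (SD, n = 3 each). It fell by 0.90 ± 0.10 on the log2 scale (SE; edgeR adjusted p = 1.68e-04). The histone methyltransferase KMT2D averaged 125 ± 3.85 CPM in ETM and 222 ± 31.4 CPM in CT whole brain and fell by 0.87 ± 0.10 (edgeR adjusted p = 1.76e-04). The histone deacetylase HDAC7 fell by 0.82 ± 0.11. DNMT1, which copies DNA methylation after replication, fell by 0.74 ± 0.10. SMARCA4 averaged 466 ± 22.3 CPM in ETM and 733 ± 95.6 CPM in CT whole brain, a fall of 0.69 ± 0.10. For none of these did the ETM and CT libraries overlap.

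Genes of RNA processing and of translation were also lower. On the splicing and processing list 6 of 7 fell and 0 rose, with a median of −0.72, and with scaling on the members alone 1 was lower and 1 higher. HNRNPUL1, an RNA-binding protein, averaged 42.8 ± 2.58 CPM in ETM and 85.9 ± 10.8 CPM in CT whole brain and fell by 1.05 ± 0.10 (edgeR adjusted p = 9.65e-05). The poly(C)-binding protein PCBP2 fell by 0.72 ± 0.09 and HNRNPL by 0.60 ± 0.09. All 3 translation initiation factor genes (EIF4B, EIF3G and EIF3K) fell, with a median of −0.51 that turned to 0.08, with 0 called, under scaling on the members alone. PRMT5, an arginine methyltransferase that acts on splicing proteins and histones, averaged 68.6 ± 11.7 CPM in ETM and 133 ± 8.64 CPM in CT whole brain. It fell by 1.00 ± 0.12 (edgeR adjusted p = 1.73e-04) and had the lowest p on chromosome 35 among members with a symbol.

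All 6 cytoskeletal members fell and 0 rose, with a median of −0.69 (1 lower and 0 higher with scaling on the members alone). The values of TUBA1A were 67645, 53095 and 65341 counts in ETM whole brain and 88252, 120743 and 86581 counts in CT whole brain. The CT libraries were all above the ETM libraries. The fall was 0.72 ± 0.11 on the log2 scale (SE; edgeR adjusted p = 5.08e-04). DCTN2, a dynactin subunit of the dynein motor, fell by 0.66 ± 0.08, the kinesin heavy chain gene KIF5A by 0.59 ± 0.10 and the neuronal intermediate filament gene PRPH by 0.38 ± 0.10. MYO1A, a myosin, fell by 1.08 ± 0.15.

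At the synapse, both LRFN1 and NAPA fell. LRFN1 encodes a postsynaptic adhesion protein that binds PSD-95. It averaged 34.9 ± 1.36 CPM in ETM and 65.9 ± 3.13 CPM in CT whole brain and fell by 0.96 ± 0.08 (edgeR adjusted p = 7.05e-05). NAPA, which helps to take SNARE complexes apart, fell by 0.42 ± 0.10 (edgeR adjusted p = 0.00481), and it had a positive fold change of 0.18 with scaling on the members alone. Of the solute carriers tested, 5 of 5 fell, with a median of −0.52 that became 0.07 under that scaling, with 1 lower and 1 higher. The sodium-calcium exchanger gene SLC8A2 fell by 0.61 ± 0.10 and the iron transporter gene SLC11A2 by 1.26 ± 0.16.

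Signalling and protein turnover showed the same direction. Of kinases, phosphatases and small GTPase regulators 7 of 9 tested fell and 0 rose, with a median of −0.61 (3 lower and 2 higher with scaling on the members alone). ARHGAP35, a GTPase-activating protein, averaged 207 ± 2.77 CPM in ETM and 383 ± 34.3 CPM in CT whole brain and fell by 0.93 ± 0.08 (edgeR adjusted p = 6.76e-05). The cell cycle kinase CDK2 fell by 1.06 ± 0.15 and the cytokine receptor kinase TYK2 by 0.72 ± 0.10. On the ubiquitin, proteasome and vesicle list 6 of 7 fell and 0 rose, with a median of −0.72 (0 called with scaling on the members alone). UBE2M fell by 0.75 ± 0.09, TRIM28, a corepressor of KRAB zinc fingers in mammals, by 0.72 ± 0.12, and FBXO46, an F-box protein, by 0.77 ± 0.08. Among members with a symbol on chromosome 39 the lowest p belonged to OTUB1, which fell by 0.74 ± 0.09 (edgeR adjusted p = 2.38e-04).

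Of 10 immune and blood cell members, 8 fell and 0 rose, with a median of −0.80 (3 lower and 1 higher with scaling on the members alone). These counts include BIN2, which was picked for its whole brain value. The tetraspanin gene CD63 averaged 88.1 ± 4.54 CPM in ETM and 147 ± 11.2 CPM in CT whole brain and fell by 0.78 ± 0.08. TGFB1, the transforming growth factor ligand, fell by 0.79 ± 0.11, and C3, the central complement component, by 1.33 ± 0.24. VAV1, a guanine nucleotide exchange factor of blood cells, fell by 1.20 ± 0.41 from few counts, with 10, 9 and 6 in ETM and 19, 14 and 22 in CT whole brain. Of the 3 members on the metabolism list 1 fell, PNPLA6, by 0.79 ± 0.11 (0 called with scaling on the members alone). Outside the lists, the fatty acid oxidation gene ECH1 averaged 30.6 ± 2.22 CPM in ETM and 69.1 ± 6.50 CPM in CT whole brain, a fall of 1.22 ± 0.10 (edgeR adjusted p = 5.14e-05). GCDH, of lysine breakdown, averaged 24.1 ± 1.90 CPM in ETM and 53.9 ± 6.35 CPM in CT whole brain and fell by 1.20 ± 0.11 (edgeR adjusted p = 8.29e-05). Of the homeobox genes, 1 of 2 fell, POU6F1, by 0.76 ± 0.21 (edgeR adjusted p = 0.0131). Under scaling on the members alone 0 homeobox genes were lower and 1 was higher. The call of POU6F1 was also lost with an offset for gene length.

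The 3 lowest fold changes of the members in whole brain came from neighbouring genes. GALNT6, CELA1 and BIN2 lie one after the other on the plus strand of chromosome 34 (build GRCg7b). GALNT6, which starts mucin-type O-glycans by adding N-acetylgalactosamine, spans 2234361 to 2256293. CELA1, an elastase-like serine protease, spans 2257769 to 2261472. BIN2, a membrane-bending BAR-domain protein of leukocytes, spans 2262249 to 2271735. They were picked for these values, so the numbers are a description without a test.

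The counts of GALNT6 were 15, 18 and 19 in ETM whole brain and 153, 168 and 164 in CT whole brain. It averaged 1.12 ± 0.18 CPM in ETM and 10.6 ± 0.83 CPM in CT whole brain (SD, n = 3 each), a log2 fold change of −3.27 ± 0.21 (SE). CELA1 had 0, 1 and 1 counts in ETM whole brain and 46, 37 and 48 in CT whole brain. The groups of both genes were far apart in every library. The summed ratio of CELA1, 2 counts in ETM against 131 in CT whole brain, was 0.0151. CELA1 passed the count rule through the CT whole brain libraries alone, so its selection favoured a low ratio and no interval is drawn from it. BIN2 had 9, 9 and 15 counts in ETM whole brain and 61, 69 and 75 in CT whole brain, a log2 fold change of −2.68 ± 0.31. An unnamed row of 557 bases between GALNT6 and CELA1, on the same strand and chosen after its values were seen, had 1, 1 and 2 counts in ETM whole brain and 13, 7 and 16 in CT whole brain.

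GALNT6 and BIN2 did not show this pattern in the libraries labelled hypothalamus, and CELA1 was not detected there, so it could not be compared. GALNT6 had 34, 88 and 71 counts in ETM hypothalamus and 6, 67 and 25 in CT hypothalamus, which overlapped. CELA1 had 0 counts in all 6 hypothalamus libraries. CT whole brain held 131 counts of CELA1. The gene passed the count rule through those libraries alone, so no fold difference between the tissues is drawn from it. BIN2 had 13, 17 and 26 counts in ETM hypothalamus and 17, 19 and 19 in CT hypothalamus, which overlapped. All 3 genes had their highest counts in the CT whole brain libraries.

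Flanking members differed much less in whole brain. SLC4A8, a sodium-bicarbonate transporter on the minus strand, was at 141 CPM in ETM and 197 CPM in CT whole brain and fell by 0.52 ± 0.09 (edgeR adjusted p = 0.00102). SMAGP, a small membrane protein that follows BIN2 on the plus strand, had a log2 fold change of −0.42 ± 0.29 and did not pass the test (edgeR adjusted p = 0.256). DAZAP2 beyond it fell by 0.61 ± 0.11 (edgeR adjusted p = 0.00128). The values of SLC4A8, SMAGP and DAZAP2 are near the median of the chromosome, −0.66. The next members outward, without a symbol, were at 0.25 ± 0.40 beyond SLC4A8 and at −1.11 ± 0.19 beyond DAZAP2. With scaling on the members alone the log2 fold changes were −2.68 for GALNT6, −5.32 for CELA1 and −2.10 for BIN2. The fitted values of CELA1 (−5.85 with the usual scaling) depend on the prior count, since ETM whole brain held 2 counts.

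**Figure D3:**
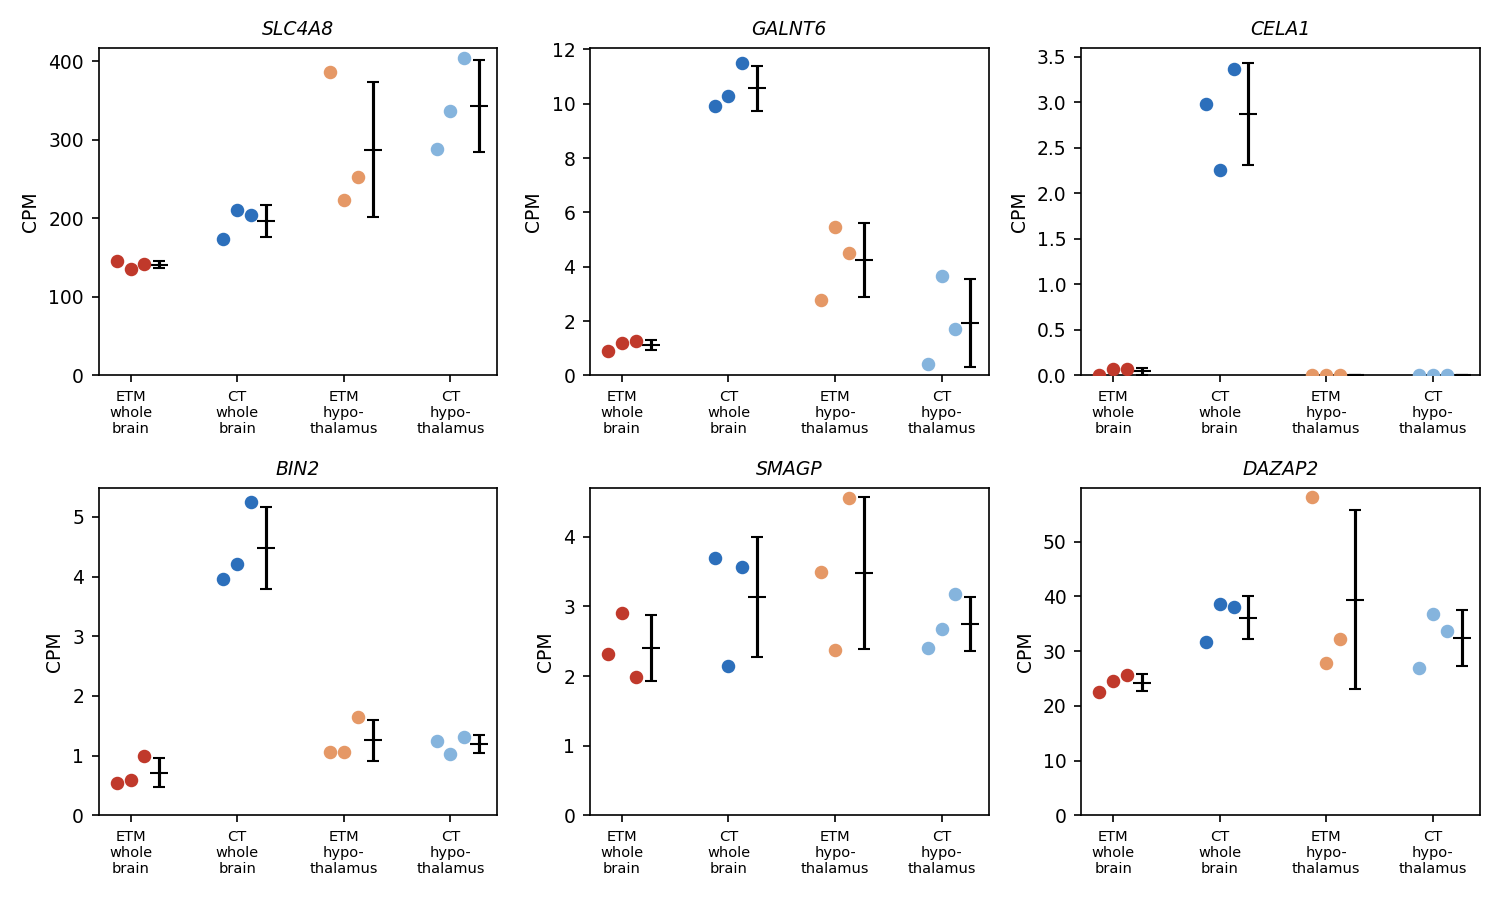
CPM of SLC4A8, GALNT6, CELA1, BIN2, SMAGP and DAZAP2, neighbours on chromosome 34, with 1 point per library and the mean ± SD of 3 libraries in black. GALNT6, CELA1 and BIN2 are highest in the 3 CT whole brain libraries, while SMAGP overlaps between groups.

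**Figure D4:**
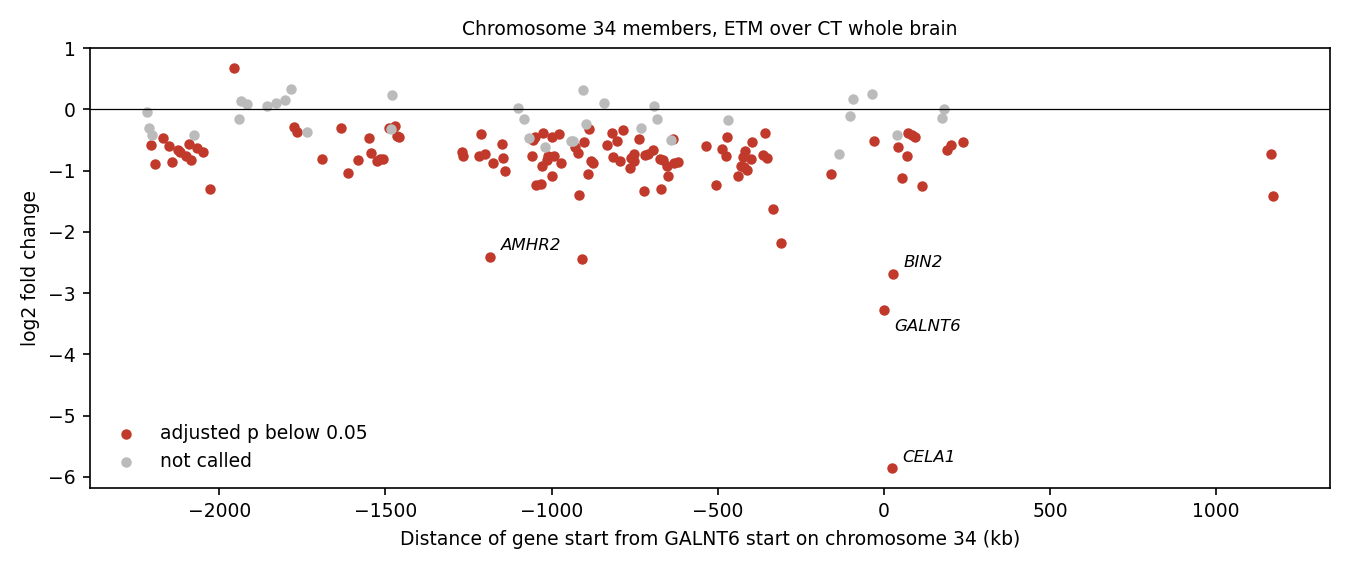
Log2 fold change of ETM over CT whole brain for the chromosome 34 members tested, against the distance of the gene start from the GALNT6 start in kilobases. Most points lie between 0 and −1.5, with GALNT6 at −3.27, CELA1 at −5.85, BIN2 at −2.68, a member without a symbol at −2.45 and AMHR2 at −2.40 among those below them.

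AMHR2, the type 2 receptor of anti-Müllerian hormone, also fell strongly and lies elsewhere on chromosome 34 (1049885 to 1055219). It had 17, 17 and 23 counts in ETM whole brain and 84, 77 and 127 in CT whole brain. That was 1.23 ± 0.26 CPM in ETM and 6.35 ± 2.24 CPM in CT whole brain, a fall of 2.40 ± 0.31 (edgeR adjusted p = 2.71e-04). In hypothalamus its counts overlapped, at 19, 8 and 21 in ETM and 2, 16 and 31 in CT. RASAL3, a Ras GTPase-activating protein gene, has 2 neighbouring rows on chromosome 30. The row from 265959 to 278255 had 8, 5 and 10 counts in ETM whole brain and 27, 35 and 27 in CT whole brain and fell by 1.99 ± 0.37 (edgeR adjusted p = 0.00144). The row from 279058 to 328659 averaged 75.4 ± 3.35 CPM in ETM and 119 ± 10.7 CPM in CT whole brain, a log2 fold change of −0.70, so the symbol alone does not give 1 value. SIPA1, which switches off Rap GTPases, had 33, 34 and 42 counts in ETM whole brain and 88, 95 and 87 in CT whole brain and fell by 1.36 ± 0.21 (edgeR adjusted p = 6.44e-04). FIGNL2, an ATPase of the fidgetin family, fell by 1.30 ± 0.20.

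The 4 members that rose in ETM whole brain included NEDD8, the ubiquitin-like modifier that activates cullin ligases. NEDD8 (chromosome 35, 500734 to 508328) had 803, 544 and 680 counts in ETM whole brain and 413, 405 and 371 in CT whole brain. It averaged 43.3 ± 6.66 CPM in ETM and 25.8 ± 1.04 CPM in CT whole brain and rose by 0.71 ± 0.12 on the log2 scale (SE; edgeR adjusted p = 0.00117). UBE2M, which hands NEDD8 to cullins, was lower, as given above. The other 3 have no symbol and were singled out after their values were seen. ENSGALG00010000486 on chromosome 39 had 170, 174 and 167 counts in ETM whole brain and 112, 116 and 105 in CT whole brain, with no overlap.

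In the libraries labelled hypothalamus no member was called between ETM and CT. Of 356 tested 0 passed edgeR, where 0.0454% of all 15405 rows were called, 0.0389% higher and 0.00649% lower. Unadjusted p-values below 0.05 were found for 57 members, 47 higher and 10 lower, against 10.3% of all rows. DESeq2 called 11 members, 11 higher and 0 lower, and 195 of all rows. The median log2 fold change was 0.13, against 0.01 over all rows, −0.02 on chromosomes 1 to 10 and 0.04 on chromosomes 11 to 28. Fold changes were below 0 for 93 members (26.1%). The median was 0.01 without ETM hypothalamus library 1 and 0.30 when the counts of that library were replaced by reads recovered from its FPKM column, which does not match its counts. Markers of serotonin neurons summed to 11.3 to 252 CPM in ETM and 424 to 651 CPM in CT hypothalamus. Of 2 such markers tested 0 were called, and their part in the members' values was not tested.

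RDH8, a retinol dehydrogenase of chromosome 30, had the lowest p among members with a symbol. Its counts were 144, 201 and 174 in ETM hypothalamus and 52, 91 and 85 in CT hypothalamus, without overlap. The log2 fold change was 1.26 ± 0.21 (edgeR adjusted p = 0.137), short of the threshold. WNT1, a signalling ligand of the midbrain-hindbrain boundary, averaged 7.54 ± 0.30 CPM in ETM and 3.76 ± 0.84 CPM in CT hypothalamus, with a log2 fold change of 1.00 ± 0.24 (edgeR adjusted p = 0.21). FAIM2, an inhibitor of Fas-driven cell death in neurons, stood at 0.58 ± 0.12 (edgeR adjusted p = 0.179), and the lysophosphatidic acid receptor gene LPAR2 at 0.73 ± 0.16 (edgeR adjusted p = 0.201). The next lowest p-values among members with a symbol belonged to ZBTB39, RBM14, TIMELESS and ZC3H4, all with fold changes above 0. On the lists, 0 members were called in any group. Medians there were 0.10 for chromatin regulators, 0.10 for splicing, 0.10 for the cytoskeleton, 0.05 for kinases and 0.07 for immune genes. With scaling on the members alone those 5 medians lay slightly below 0, between −0.07 and −0.02.

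The heat effects of the members were set against each other between the tissues. This difference contains the whole brain heat effect, which was known when the chromosomes were proposed, so its values are a description and not separate support. The difference, hypothalamus heat effect minus whole brain heat effect, was called higher for 171 and lower for 2 of 368 members tested (edgeR, 12 libraries in 1 fit). Of all rows 24.2% were called, 11.9% higher and 12.3% lower. The median difference was 0.72 for the members and −0.03 for all rows. It was 0.26 on chromosomes 11 to 28 and −0.18 on chromosomes 1 to 10. Chromosomes 16 and 25, which hold no members, had medians of 0.72 and 0.70. With reads recovered for ETM hypothalamus library 1, 133 members were higher and 0 lower, and 2626 of all rows were called. With scaling on the members alone 19 were higher and 33 lower, and the median of all rows was −0.69. The medians of the heat effects themselves were 0.13 in hypothalamus and −0.58 in whole brain. Of the 256 members with a symbol tested, 134 were called higher, and in the highest group by level 71 of 123 were. On the lists, 9 of 12 chromatin regulators, 5 of 7 splicing genes, 5 of 6 cytoskeletal genes and 7 of 10 immune genes were called higher and 0 lower. Scaling on the members alone left 0, 0, 0 and 1 higher and 0 lower. Other lists had lower shares, with 5 of 11 kinases and related regulators, 3 of 6 solute carriers and 1 of 3 metabolism genes higher. The lists were not matched for level. The immune genes include BIN2, which was picked for its whole brain value. Across 341 members tested in both tissues, the 2 heat effects had a Pearson r of 0.18 and a Spearman correlation of 0.23, a weak relation across genes that share libraries and neighbourhoods.

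LRFN1 differed by 1.14 ± 0.17, and averaged 70.8 ± 11.6 CPM in ETM and 60.9 ± 5.11 CPM in CT hypothalamus. FLRT1, an adhesion protein of axon guidance on chromosome 39, differed by 1.23 ± 0.17. It averaged 27.5 ± 4.15 CPM in ETM and 20.2 ± 0.61 CPM in CT hypothalamus. Its counts were 202, 176 and 181 in ETM whole brain and 308, 344 and 301 in CT whole brain. KANSL2, a subunit of a histone acetyltransferase complex, differed by 1.05 ± 0.15, SUPT5H by 1.00 ± 0.18 and ARHGAP35 by 1.01 ± 0.16. KANSL2 and SUPT5H lost their calls with scaling on the members alone. RDH8 differed by 1.64 ± 0.29, with 40, 46 and 45 counts in ETM whole brain and 48, 62 and 58 in CT whole brain. The 2 members called lower, on chromosomes 30 and 34, have no symbol. With reads recovered for ETM hypothalamus library 1, 0 members were called lower.

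**Figure D5:**
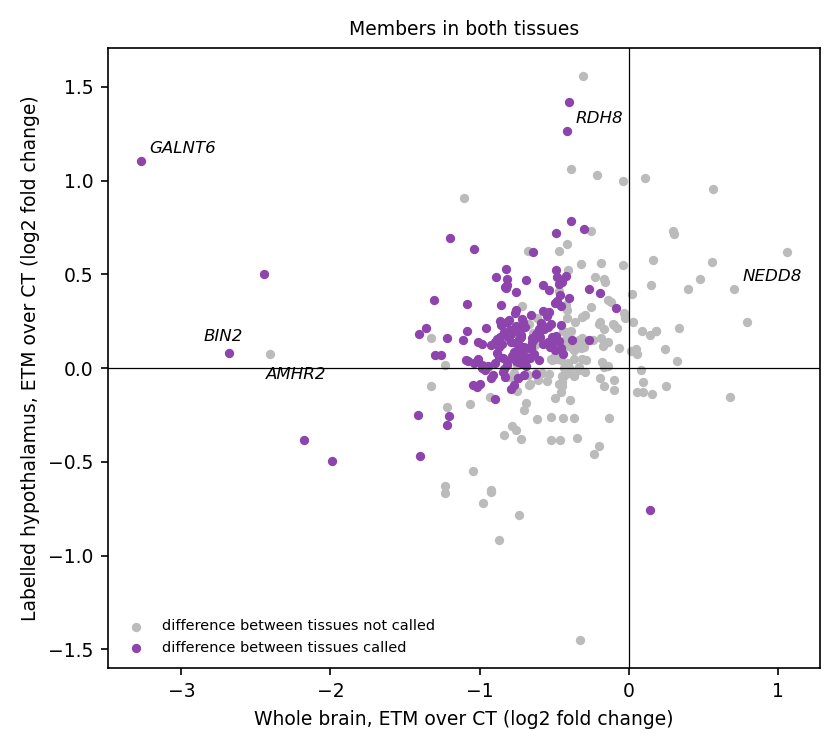
Log2 fold change of ETM over CT for each member tested in both tissues, whole brain on the horizontal and libraries labelled hypothalamus on the vertical axis, coloured by whether the difference between the tissues was called (adjusted p below 0.05). Most of the 341 points lie left of 0 and near 0 on the vertical axis, and GALNT6 lies at −3.27 and 1.10.

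Between the tissues of control embryos the members as a whole did not shift. In CT hypothalamus over CT whole brain 51 members were higher and 68 lower of 368, where 34.3% of all rows were called, 16.7% higher and 17.6% lower. The median log2 fold change was −0.05 for the members and 0.01 for all rows. On chromosome 38, 18 of 62 members were lower and 1 higher, with a median of −0.25. With reads recovered for ETM hypothalamus library 1, which enters this fit through the shared spread, 34 were higher and 33 lower. The 3 oligodendrocyte markers found summed to 9230 to 19000 CPM in CT hypothalamus and 2780 to 4530 CPM in CT whole brain, and their part in the tissue differences was not tested.

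C1QL4, a secreted C1q-like synapse protein, showed the highest tissue difference among members with a symbol. Its counts were 1531, 2171 and 1762 in CT hypothalamus and 166, 215 and 156 in CT whole brain, a log2 fold change of 3.33 ± 0.25 (SE; edgeR adjusted p = 5.57e-07). CC2D1A, a signalling scaffold and repressor, averaged 50.8 ± 1.95 CPM in CT hypothalamus and 22.1 ± 0.71 CPM in CT whole brain and was higher by 1.20 ± 0.10. FERMT3, an integrin activator of blood cells, was higher by 1.79 ± 0.24. Lower in hypothalamus were NR4A1, an immediate-early nuclear receptor, by −2.36 ± 0.32 and the keratin gene KRT7 by −1.93 ± 0.21. SLC8A2 had 2234, 2498 and 2340 counts in CT hypothalamus and 5849, 8173 and 5938 in CT whole brain, a difference of −1.49 ± 0.13 (edgeR adjusted p = 1.65e-06). NEUROD4, a neurogenic transcription factor, had 4, 3 and 3 counts in CT hypothalamus and 38 in each CT whole brain library, and differed by −3.47 ± 0.57.

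In heat-exposed embryos most called members were higher in hypothalamus than in whole brain with the usual scaling. In ETM hypothalamus over ETM whole brain 224 members were higher and 22 lower of 368, where 58.9% of all rows were called, 29.3% higher and 29.6% lower. The median was 0.64 for the members and 0.01 for all rows. It was 0.29 on chromosomes 11 to 28 and −0.18 on chromosomes 1 to 10. High medians were not limited to the members' chromosomes, since chromosome 16 had 0.83 and chromosome 25 had 0.76. With factors from chromosomes 1 to 10, 270 members were higher and 9 lower, and with DESeq2 236 were higher and 22 lower. Of all rows 9652 and 9638 were called in these settings. Factors from chromosomes 1 to 10 also moved the median of all rows to 0.205, so the larger number of members called higher is not separate support. With scaling on the members alone 85 were higher and 89 lower, and the median of all rows was −0.60. That scaling sets the members' centre near 0 by construction. This comparison shares its ETM whole brain libraries with the heat comparison above, so it is not separate support. With reads recovered for ETM hypothalamus library 1 the median was 0.81. C1QL4 was higher here by 4.18 ± 0.26 and CC2D1A by 1.85 ± 0.10. STAT6, the transcription factor of interleukin signalling, averaged 59.1 ± 7.42 CPM in ETM hypothalamus and 15.1 ± 1.55 CPM in ETM whole brain and was higher by 1.97 ± 0.12 (edgeR adjusted p = 4.64e-08). PCK2, the mitochondrial phosphoenolpyruvate carboxykinase, was higher by 1.95 ± 0.21. PA2G4, a growth-linked RNA-binding protein, was lower by −0.97 ± 0.10, NR4A1 by −1.93 ± 0.33 and NEDD8 by −0.73 ± 0.14. With reads recovered for ETM hypothalamus library 1 NEDD8 was at −0.44 and was no longer called.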

How the data were processed

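The deposited whole-series table gives, per gene, read counts and FPKM (fragments scaled by gene length and library size) for 12 libraries, with gene length. The authors deposited counts made with featureCounts of Subread 2.0.6 on GRCg7b, per the submitters' processing notes. For the aligner and the strand setting, nothing is given in the sources used here. The authors deposited gene length in bases and FPKM scaled by it. Of the FPKM columns, 11 matched their counts within 0.1% in 100% of rows, while that of ETM hypothalamus library 1 matched in 0.242%. Reads recovered from that column (100% whole within 0.01, sum 12161593) were an alternative.

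Members and lists were chosen with earlier results of these data known. All rows went through edgeR 4.0.16 under R 4.3.3 (filterByExpr, TMM scaling, quasi-likelihood test, Benjamini-Hochberg adjustment, called below 0.05). Heat was tested within each tissue on 6 libraries. The interaction and the tissue comparisons came from 1 fit of 12 libraries. CPM was scaled by TMM over the 12 libraries. The SE is the unshrunk fold change over the root of F and is approximate, whereas printed fold changes are edgeR's shrunken values. The test was first run on simulated data. No 2 libraries of a group agreed within sampling noise. The genes named were members with a symbol. They were the 8 largest positive and 8 largest negative called changes with at least 1 CPM and, except for the interaction, no overlap between groups, or the 8 lowest p-values where few were called, the lowest p and 2 highest levels per chromosome, up to 3 per list, and GALNT6, CELA1 and BIN2. SMAGP, DAZAP2, SLC4A8, SLC11A2, the EIF genes and members without a symbol fall outside that rule and were chosen after their values were seen. Alternatives were DESeq2 1.42.0, RLE scaling, TMM factors from chromosomes 1 to 10, no count filter, protein-coding genes alone, an offset for gene length, the replicate block, 1 fit, and each library left out. TMM factors from the members alone were added after the data were seen. G and C content was not analysed here.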

Additional observations from a re-analysis of the deposited data

Results flagged for a closer look

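Differences between the tissues in the heat effect came from the interaction term of 1 edgeR fit of 12 libraries, and each value here is the hypothalamus heat effect minus the whole brain heat effect on the log2 scale. Of the members 173 were called, 171 higher and 2 lower, and 24.2% of all rows were called. With reads recovered for ETM hypothalamus library 1, 133 were called, 133 higher and 0 lower, and 2626 of all rows. The difference contains the whole brain heat effect, which was known when the chromosomes were proposed, so all values here are descriptions. GALNT6 (4.33) and BIN2 (2.72) were chosen for their whole brain values. VAV1 differed by 1.86 ± 0.58 (SE) from 6 to 27 counts per library, and its call was lost under 10 of 21 alternatives, the replicate block and 8 omissions of 1 library among them. RDH8 differed by 1.64 ± 0.29 and SIPA1 by 1.54 ± 0.31, and SIPA1 lost its call with scaling on the members alone. RASAL3, in its row from 265959 to 278255, differed by 1.46 ± 0.42 and lost its call without ETM whole brain library 1 or 2, CT whole brain library 2 or CT hypothalamus library 2, and with scaling on the members alone. BICRA, a subunit of a SWI/SNF complex, differed by 1.34 ± 0.21, with 19.1 ± 1.22 CPM in ETM and 43.3 ± 4.26 CPM in CT whole brain. DDX23, a helicase of the spliceosome, differed by 1.34 ± 0.26, with 170, 223 and 271 counts in ETM and 156, 183 and 155 in CT hypothalamus. The call of DDX23 was also lost with scaling on the members alone.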

How the results depend on the processing

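Scaling factors from the members alone, an alternative added after the data were seen, moved the median of all rows to 0.60 in whole brain. The members' medians became 0.00688 in whole brain, 0.0371 for the difference between tissues and 0.029 between the tissues of ETM embryos. This scaling sets them near 0 by construction, so these medians cannot show whether the members differed. Members called became 105 in whole brain (60 higher, 45 lower) and 52 for the difference between tissues (19 higher, 33 lower). Of all rows 9725 and 7425 were called there. Signs turned under this scaling for NAPA in whole brain (0.18), BIN2 in hypothalamus (−0.00425), FBXO46 in the difference between tissues (−0.0358), and HNRNPUL1 (−0.0433), TARBP2 (−0.0450) and SIRT2 (−0.0553) between the tissues of ETM embryos. Factors from chromosomes 1 to 10 moved those 3 medians to −0.718, 0.914 and 0.841. The medians of all rows moved with them, to −0.121, 0.162 and 0.205. That scaling centres chromosomes 1 to 10, so the larger medians of the members are not separate support. Recovered reads for ETM hypothalamus library 1 gave medians of 0.301 in hypothalamus, 0.885 for the difference between tissues and 0.812 between ETM tissues. With them 133 members (133 higher, 0 lower) and 2626 of all rows were called for the difference between tissues. Between CT tissues 67 members and 4158 of all rows were called with them. In hypothalamus, members called were 11 with DESeq2, 3 without a count filter and 5 in 1 fit of 12 libraries. Of all rows 195, 52 and 83 were called in these settings. With the offset for gene length, 211 members were called in whole brain (10 higher, 201 lower), with a median of −0.488. For the difference between tissues it gave 143 members called, with a median of 0.609. Of all rows 6602 and 3530 were called with the offset in these 2 comparisons.

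Leaving out 1 library at a time, members called ran from 212 to 238 in whole brain, 0 to 1 in hypothalamus, 121 to 192 for the difference between tissues, 85 to 136 between CT tissues and 215 to 258 between ETM tissues. Medians ran from −0.647 to −0.518, from 0.0118 to 0.197, from 0.604 to 0.803, from −0.0994 to −0.006 and from 0.554 to 0.718 in the same order, with the lowest in hypothalamus and for the difference between tissues found without ETM hypothalamus library 1. Over all rows, calls ran from 5473 to 6610 in whole brain and from 0 to 39 in hypothalamus. They ran from 2340 to 4195 for the difference between tissues and from 4200 to 6298 between CT tissues. Between ETM tissues 8678, 8503 and 8777 of all rows were called without ETM whole brain library 1, 2 and 3. The members called there were 237, 215 and 219. BIN2 in hypothalamus, not called, ran from −0.174 (without ETM library 3) to 0.192 (without ETM library 2) and was −0.01785 without CT library 2.

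Replicate numbers did not pair the samples. The correlations of same-numbered libraries were −0.0257, −0.00895 and −0.0151 in whole brain and 0.0914, −0.253 and −0.355 in hypothalamus, and not every sample correlated best with its own number. With the replicate block the members called were 228, 0, 150, 106 and 245 in the 5 comparisons, against 237, 0, 173, 119 and 246 without it. Of all rows 6190, 2, 2974, 4938 and 9145 were called with the block, against 6787, 7, 3917, 5564 and 9543 without it. The causes were not tested.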
